A study of Mus musculus with 6 samples.

Results

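The genes of polyamine synthesis and control were 8 members chosen by symbol: Odc1, Amd1, Srm and Sms for synthesis, Oaz1, Oaz2 and Azin1 for control, and Sat1 for breakdown. All 8 were present among the 11779 genes with counts, and all 8 were kept among the 10869 genes tested after a filter on low counts. They were measured by RNA-seq in long-term hematopoietic stem cells, the bone marrow cells that sustain blood formation, sorted as Lin-Sca1+c-Kit+CD48-CD150+ from female mice aged 8 weeks. All mice carried 1 floxed and 1 unmodified allele of Myc. The WT group (c-Mycfl/+, n = 3 libraries) had no Cre, and the HET group (c-Mycfl/+Mx1Cre, n = 3) carried Mx1-Cre, whose interferon-responsive promoter drives Cre in many cell types, so that deletion is not limited to stem cells. Deletion was induced with 3 intraperitoneal injections of 6 mg/kg poly(I:C), a double-stranded RNA analog that triggers interferon. Whether WT mice received it is not stated apart from HET. Libraries are numbered 1, 3 and 4 in each group. The labels do not say that each library came from a separate mouse, so p-values measure the spread between these libraries, which may be technical.

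Polyamines (putrescine, spermidine and spermine) are small positively charged molecules that bind RNA and DNA and are needed for growth. Ornithine decarboxylase, the product of Odc1, makes putrescine. Spermidine synthase (Srm) and spermine synthase (Sms) extend it with aminopropyl groups that come from S-adenosylmethionine after decarboxylation by the enzyme of Amd1. Antizymes (Oaz1, Oaz2) bind ornithine decarboxylase, deliver it to the proteasome and restrain polyamine uptake. The antizyme inhibitor (Azin1), an enzyme homolog without activity, takes antizyme away. The acetyltransferase of Sat1 starts breakdown and export. Odc1 is a classic target of the transcription factor MYC, which binds as a dimer with MAX to the E-box CACGTG and to variants such as CACGCG. The question here was how these transcripts compared between the groups when deletion of 1 Myc allele was induced.

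Antizyme synthesis depends on a ribosomal frameshift that polyamines promote, at a stop codon inside the coding sequence. The site is shown because gene counts cannot see this step: they measure the antizyme transcript, not its decoding. Both windows below come from GENCODE M21 transcripts on GRCm38, plus strand (chr10:80828268-80828327 for Oaz1 and chr9:65686245-65686304 for Oaz2). The capitals mark the 8 bases that hold the last codon read in the first frame, the TGA stop and the start of what follows.
Oaz1: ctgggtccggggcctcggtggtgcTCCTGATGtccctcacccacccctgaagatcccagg
Oaz2: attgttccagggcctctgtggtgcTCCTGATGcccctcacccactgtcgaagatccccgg
Of the 60 aligned bases 49 were identical between Oaz1 and Oaz2, the marked 8 among them.

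Start site regions were in the RefSeq promoter table (GRCm38.p6) for 6 of the 8 members, all but Srm and Azin1. Windows of 300 bases, from 250 before the start to 50 after it, were searched on both strands for the palindrome CACGTG and for a variant, CACGCG. The latter reads as CGCGTG on the opposite strand. CACGTG was found for 1 member, Sms, and in 7.15% of all 32851 windows in the table. CACGCG was found for 3 members (Odc1, Oaz1 and Sms) and in 9.27% of all windows. The Odc1 window held it at 2 places and had no CACGTG. The rest of the gene, introns included, was not searched, so a CACGTG elsewhere in Odc1 would not be seen. The Sms matches lay in different windows, since Sms has 2 listed starts. Members were counted by gene and the background by window, so the 2 shares are not in like units. Stretches upstream of annotated exons are printed for Odc1 as the MYC target, for Sms with the single CACGTG, and for Oaz2, the member with the clearest separation between groups. Capitals mark the motifs in either orientation, and Oaz2 had none. The RefSeq start of Oaz2 lies inside the gene as GENCODE draws it, 8547 bases from the first annotated start. A match describes letters in the window and is not a measured binding site.
Odc1 (chr12:17544623-17544793, plus strand): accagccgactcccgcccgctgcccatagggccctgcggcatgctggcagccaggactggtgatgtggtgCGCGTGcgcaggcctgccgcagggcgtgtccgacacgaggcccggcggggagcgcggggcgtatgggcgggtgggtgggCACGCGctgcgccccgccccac
Sms (chrX:157492288-157492537, minus strand): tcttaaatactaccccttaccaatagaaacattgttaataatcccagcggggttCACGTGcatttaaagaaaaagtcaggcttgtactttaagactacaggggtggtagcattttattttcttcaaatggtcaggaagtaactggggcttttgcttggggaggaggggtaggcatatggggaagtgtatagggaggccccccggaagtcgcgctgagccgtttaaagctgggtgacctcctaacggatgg
Oaz2 (chr9:65676298-65676547, plus strand): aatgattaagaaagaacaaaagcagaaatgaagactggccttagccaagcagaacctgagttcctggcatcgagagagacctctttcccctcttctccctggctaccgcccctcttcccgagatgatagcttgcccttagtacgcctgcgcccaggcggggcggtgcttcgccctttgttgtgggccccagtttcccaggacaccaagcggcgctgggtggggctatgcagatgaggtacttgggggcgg

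Total counts ranged from 4249490 to 5600856 over the WT libraries. HET 1 was the deepest at 9886223 counts, with 4627452 in HET 3 and 5054028 in HET 4. The 8 members together held between 0.0367% and 0.0456% of the counts of a library. Levels are CPM, counts scaled to a common total on the TMM-adjusted library size. Myc, counted over the whole gene, stood at 447.4, 427.4 and 541.8 CPM in WT libraries 1, 3 and 4, while HET libraries 1, 3 and 4 stood at 293.8, 386.7 and 372.0 CPM. All HET libraries lay below all WT libraries, at 74.2% of the WT level by edgeR (adjusted p = 0.312). The 7 markers of the sorted population used here (Kit, Ly6a, Slamf1, Procr, Hlf, Mecom and Fgd5) were all present, with summed levels of 2159 to 2505 CPM in WT and 2080 to 2465 CPM in HET. All 10 neutrophil and monocyte markers were also counted, at 278 to 805 CPM in WT and 349 to 619 CPM in HET. Of these 10, only Prtn3 was separated singly, with HET below WT. It measured 94.9, 110.9 and 84.9 CPM in WT libraries 1, 3 and 4 against 72.0, 77.9 and 65.3 CPM in the HET libraries (edgeR adjusted p = 0.6585). The 6 megakaryocyte markers summed to 754 to 769 CPM in WT and 900 to 1097 CPM in HET, without overlap. Of these 6, only Itga2b was separated singly. It measured 316.3, 288.5 and 263.3 CPM in WT libraries 1, 3 and 4 against 560.5, 364.0 and 390.5 CPM in the HET libraries (edgeR adjusted p = 0.132). Pf4, Gp1bb, Gp9, Vwf and Ppbp each overlapped between the groups. Cd48, which the sort selects against, measured 3.25, 2.74 and 1.67 CPM in WT libraries 1, 3 and 4 against 3.67, 8.29 and 8.96 CPM in the HET libraries, also without overlap (266% of WT, edgeR adjusted p = 0.849). These were few counts, 18, 15 and 7 against 37, 38 and 46. Flt3 and Cd34, also listed as low in the sorted cells, overlapped between the groups at 96.4% and 105% of WT. Summed with Cd48 they gave 264 to 338 CPM in WT and 305 to 334 CPM in HET. Of the erythroid, B lineage and T and NK lineage lists, 4 of 8, 2 of 5 and 1 of 4 markers were in the table, and their summed levels overlapped between the groups. Singly, only the erythroid Hbb-bt was separated, with HET above WT. It measured 4.51, 4.76 and 6.68 CPM in WT libraries 1, 3 and 4 against 8.33, 8.51 and 8.96 CPM in the HET libraries (edgeR adjusted p = 0.995). Over all genes tested 10.3% were separated, 4.69% with HET above WT and 5.64% with HET below WT. In such bulk libraries fewer cells of a type and less RNA per cell cannot be told apart.

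None of the 8 members passed an adjusted p of 0.05 in edgeR's quasi-likelihood test, in either direction. Over all genes tested 28 passed, which is 0.258% (0.221% lower and 0.0368% higher in HET), so 0 of 8 is near that background. DESeq2 and limma-voom also called 0 of the 8. At an unadjusted p under 0.05 stood 1 member, Oaz2, against 5.22% of all genes. The log2 fold changes (HET minus WT) were negative for 7 members and positive for 1, from -0.60 for Oaz2 to 0.14 for Sat1, with a median of -0.11 against 0.0040 over all genes tested. Of the 10869 genes tested 5356 were negative and 5513 positive. Whether the members moved as a set was not tested. The libraries of the groups did not overlap for 1 member, again Oaz2 with HET below WT, where 10.3% of all genes had no overlap, 5.64% with HET below WT and 4.69% with HET above WT.

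**Figure D1:**
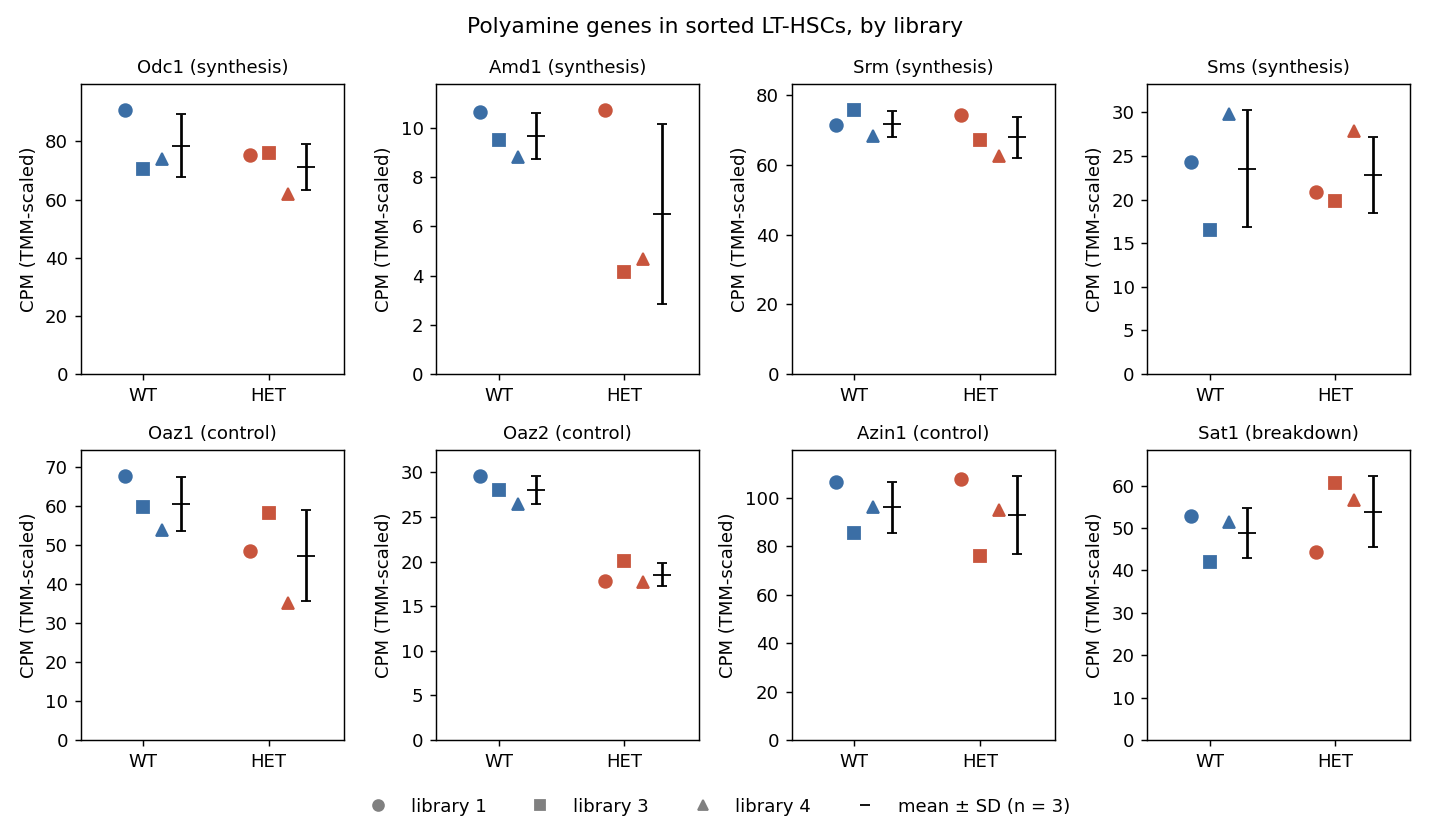
Level of each member in each library (CPM on TMM-scaled library size, axis from 0), WT in blue and HET in red, symbols giving the library number, black bars the mean ± SD of 3 libraries. The groups separate for Oaz2 alone, and HET 1 sits with WT for Amd1.

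Among the synthesis genes, Odc1 (ENSMUSG00000011179; GRCm38 chromosome 12, 17544794 to 17551505, plus strand) encodes the enzyme of the first committed step. It measured 90.7, 70.6 and 73.9 CPM in the WT libraries (numbers 1, 3 and 4, in this order throughout) against 75.3, 76.1 and 62.0 CPM in the HET libraries. WT 1 was the highest and HET 4 the lowest, and the other 4 libraries lay close together across the groups. WT averaged 78.4 ± 10.8 and HET 71.1 ± 7.94 CPM (mean ± SD over n = 3 libraries a group). The log2 fold change was -0.14 ± 0.17 (SE, edgeR adjusted p = 0.995). HET was at 90.7% of the WT level with a 95% interval of 71.5% to 115%, which includes both no difference and the 74.2% measured for Myc. The value rested on the extreme libraries: it was -0.024 without WT 1 and -0.046 without HET 4. The ratio of Odc1 to Myc counts, added after the values were seen, was -2.30, -2.60 and -2.87 on the log2 scale in the WT libraries against -1.96, -2.34 and -2.59 in the HET libraries. It was higher in HET by 0.29, with overlapping libraries (exact two-sided permutation test p = 0.4, where 0.1 is the smallest this design allows). The difference was 0.13 without HET 1, 0.15 without WT 4 and 0.44 without either WT 1 or HET 4.

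Srm (ENSMUSG00000006442; chromosome 4, 148591503 to 148594993, plus strand) encodes the synthase that makes spermidine. It measured 71.4, 75.7 and 68.2 CPM in the WT libraries against 74.2, 67.2 and 62.6 CPM in the HET libraries. The groups overlapped through HET 1, while HET 3 and HET 4 lay below every WT library. Relative to WT, HET stood at 94.8% (95% interval 75.2% to 119%), or -0.077 ± 0.16 on the log2 scale (SE). The log2 value was -0.015 without HET 4, -0.037 without WT 3 and -0.15 without HET 1. Over the 6 libraries the log2 CPM of Odc1 and Srm, each centred on its own mean, differed by a root mean square of 0.14. That was the smallest value among the 28 pairs of members. The measure is small for genes that vary little, and the SD of Odc1 itself was 0.18 log2 units. It therefore does not show that Odc1 and Srm rose and fell together.

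Amd1 (ENSMUSG00000075232; chromosome 10, 40287458 to 40302186, minus strand) encodes the decarboxylase that supplies aminopropyl groups, and its transcript had the lowest mean of the 8 in CPM per kb, overlapping Sms in WT. It had 59, 52 and 37 counts in the WT libraries against 108, 19 and 24 in the HET libraries. Scaled for depth, WT stood at 10.6, 9.51 and 8.82 CPM, while HET stood at 10.7, 4.14 and 4.68 CPM. HET 1 was as high as the highest WT library, and HET 3 and HET 4 were near the middle of the range between 0 and the WT level. The coefficient of variation was 56.0% in HET and 9.51% in WT. The log2 fold change was -0.53 ± 0.44 (SE, edgeR adjusted p = 0.995), with a 95% interval for HET of 36.4% to 131% of WT. Without HET 1, the library with the largest total, it was -1.13 (adjusted p = 0.577), still not past the threshold. Without HET 3 or HET 4 it was smaller in size, at -0.30 or -0.34. The annotation lists a retrotransposed protein-coding copy, Amd2, and 5 processed pseudogenes of this gene. Amd2 had no entry under this symbol among the genes with counts, so it was not analysed. No source used here says how reads matching several copies were assigned, so the level of Amd1 is uncertain.

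Sms (ENSMUSG00000071708; chromosome X, 157443855 to 157492287, minus strand) encodes the synthase that makes spermine. It measured 24.4, 16.5 and 29.8 CPM in the WT libraries against 20.8, 19.8 and 27.9 CPM in the HET libraries. The WT libraries enclosed all HET libraries, and library 4 was the highest of each group. HET was at 97.2% of WT (95% interval 65.1% to 145%). The log2 fold change of -0.041 ± 0.28 (SE) turned positive without WT 4 (0.16), HET 1 (0.025) or HET 3 (0.047). Amd1 and Sat1 had the largest root mean square difference of any pair of members, at 0.68 log2 units.

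Of the control genes, Oaz2 (ENSMUSG00000040652; chromosome 9, 65668001 to 65690300, plus strand) was the member with the smallest p. This second antizyme also binds ornithine decarboxylase. It had 164, 153 and 111 counts in the WT libraries against 180, 92 and 91 in the HET libraries. Scaled for depth, WT stood at 29.6, 28.0 and 26.5 CPM, while HET stood at 17.9, 20.1 and 17.7 CPM. No HET library reached the lowest WT library, and the libraries within a group were close to each other. WT averaged 28.0 ± 1.56 and HET 18.6 ± 1.31 CPM (mean ± SD over n = 3 libraries a group). The log2 fold change was -0.60 ± 0.25 (SE, edgeR adjusted p = 0.844), so the difference did not pass over all genes tested. Its unadjusted p of 0.0261 ranked 335 among 10869 genes. HET was at 66.1% of WT, with an unadjusted 95% interval of 46.1% to 94.7%. In the fits that left out 1 library the value stayed between -0.65 and -0.56, with no adjusted p under 0.623. The summed megakaryocyte markers were separated between the groups in the opposite direction, though of these only Itga2b was separated singly. Their part in this result was not tested. A processed pseudogene, Oaz2-ps, is annotated.

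Oaz1 (ENSMUSG00000035242; chromosome 10, 80826656 to 80829290, plus strand) encodes the widely expressed antizyme. It measured 67.7, 59.6 and 53.9 CPM in the WT libraries against 48.4, 58.2 and 35.1 CPM in the HET libraries. HET 3 lay within the WT range, and HET 1 and HET 4 lay below it. WT averaged 60.4 ± 6.91 and HET 47.2 ± 11.6 CPM (mean ± SD over n = 3 libraries a group). On the log2 scale HET minus WT was -0.36 ± 0.20 (SE, edgeR adjusted p = 0.980). HET was at 78.1% of WT (95% interval 58.5% to 104%). The value was -0.52 without HET 3 and -0.18 without HET 4. The Oaz2 to Oaz1 ratio, also added after the values were seen, differed between the groups by -0.22 on the log2 scale with overlapping libraries (exact two-sided permutation p = 0.4). The difference was -0.11 without HET 3 and -0.38 without HET 4, so its size rests on single libraries, and the antizyme transcripts were not shown to differ in their response. A processed pseudogene of Oaz1 is annotated as well.

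Azin1 (ENSMUSG00000037458; chromosome 15, 38487427 to 38519266, minus strand) encodes the antizyme inhibitor, which frees ornithine decarboxylase. It measured 106, 85.4 and 96.1 CPM in the WT libraries against 108, 76.1 and 94.9 CPM in the HET libraries. Library 1 was the highest and library 3 the lowest of each group, and the groups overlapped throughout. HET was at 97.2% of WT (95% interval 77.4% to 122%). The log2 fold change of -0.041 ± 0.16 (SE) turned positive without WT 1 (0.038) or HET 3 (0.082).

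The breakdown gene Sat1 (ENSMUSG00000025283; chromosome X, 155213132 to 155216449, minus strand) was the member with a positive value. It measured 52.9, 42.1 and 51.5 CPM in the WT libraries against 44.4, 60.6 and 56.5 CPM in the HET libraries. HET 3 and HET 4 lay above every WT library, and HET 1 lay within the WT range. WT averaged 48.8 ± 5.88 and HET 53.9 ± 8.41 CPM (mean ± SD over n = 3 libraries a group). On the log2 scale HET minus WT was 0.14 ± 0.19 (SE, edgeR adjusted p = 0.995). Leaving out WT 3 or HET 3 lowered it to 0.040 or 0.045, and leaving out HET 1 raised it to 0.26. HET was at 110.0% of WT (95% interval 83.4% to 145%).

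**Figure D2:**
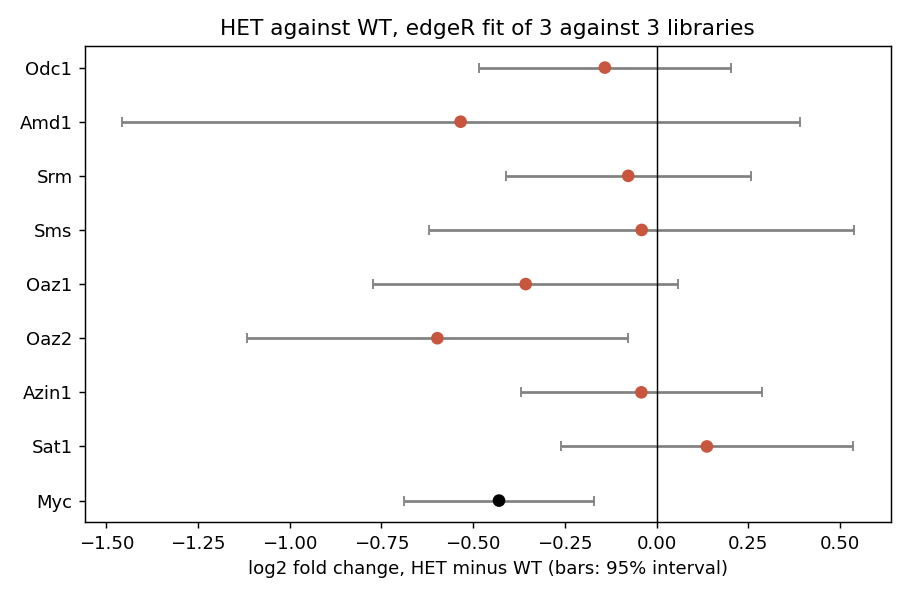
Log2 fold change of each member (red) and of Myc (black), HET minus WT, with the 95% interval of the edgeR fit, not adjusted for the number of genes. The intervals of Oaz2 and Myc lie below 0, those of the other 7 members include 0, and that of Amd1 is the widest.

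Ratios of counts within a library compare enzyme and regulator without any library scaling. The Odc1 to Oaz1 ratio was 0.42, 0.24 and 0.46 on the log2 scale in the WT libraries against 0.64, 0.39 and 0.82 in the HET libraries. HET 1 and HET 4 lay above all WT libraries and HET 3 lay within their range. The difference of 0.24, a 1.18-fold higher ratio in HET, gave p = 0.3 in the exact two-sided permutation test. It was 0.14 without HET 4 and 0.35 without HET 3. The Azin1 to Oaz1 ratio was 0.65, 0.52 and 0.83 in the WT libraries against 1.16, 0.39 and 1.44 in the HET libraries. HET 3 was the lowest of all 6 libraries and HET 4 the highest, and the difference of 0.32 had an exact permutation p of 0.4. It was 0.63 without HET 3 and 0.10 without HET 4. The Odc1 to Sat1 ratio, entry into synthesis against the first step of breakdown, was 0.78, 0.75 and 0.52 in the WT libraries against 0.76, 0.33 and 0.13 in the HET libraries. HET 3 and HET 4 lay below all WT libraries and HET 1 beside the upper WT values, with a difference of -0.28 and an exact permutation p of 0.3. The difference was -0.14 without HET 4 and -0.45 without HET 1. Of these 3 ratios none separated the groups, and 0.1 is the smallest p that 3 against 3 libraries allow, so the design could not reach 0.05.

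**Figure D3:**
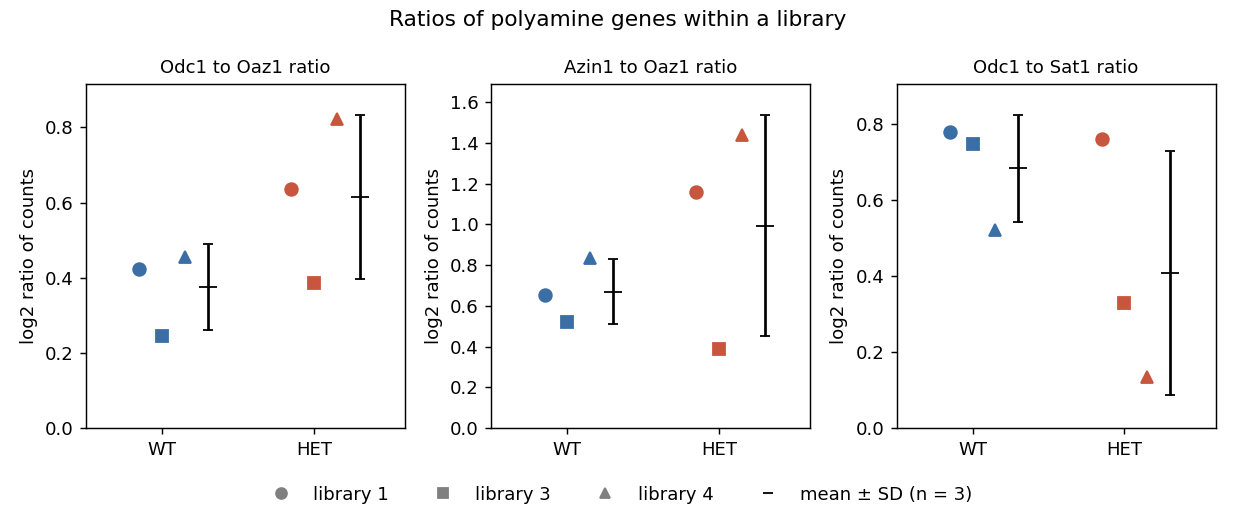
Log2 ratio of the counts of a pair of members in each library, WT in blue and HET in red, with the mean ± SD of 3 libraries in black. In each panel at least 1 HET library falls inside or beyond the WT range on the opposite side from the rest: HET 3 for both Oaz1 ratios and HET 1 for Odc1 to Sat1.

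Levels between genes were compared per kilobase of annotated exon (CPM per kb, all isoforms merged, which lowers genes with long retained-intron models). Such a comparison assumes even coverage along transcripts, and the library kit is not known. Before division by length, the WT means of Azin1 (96.0 CPM) and Odc1 (78.4 CPM) were above that of Srm (71.8 CPM). Per kilobase, Srm was the highest in WT at 44.9 ± 2.36 CPM per kb. Oaz1 followed at 23.6 ± 2.70 and Odc1 at 23.0 ± 3.17, which overlapped. Sat1 at 17.6 ± 2.12 and Azin1 at 15.3 ± 1.68 overlapped each other and lay below both. Oaz2 was at 9.37 ± 0.52 CPM per kb, Sms at 3.92 ± 1.12 and Amd1 at 2.73 ± 0.26, where the last pair overlapped (SD, n = 3 for each level). In HET the order differed in 1 place: Oaz1, at 18.5 ± 4.54 CPM per kb, came after Odc1 at 20.9 ± 2.33 and Sat1 at 19.4 ± 3.03, all within each other's spread.

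Among 6296 other genes with a mean of at least 5 log2 CPM, those with the profile most like Odc1 over the 6 libraries were Sp4, Rbpj, Ercc6 and Tshz1. Their root mean square differences in centred log2 CPM were 0.046, 0.051, 0.052 and 0.063, against a median of 0.237. For Oaz2 the nearest were Pld3 (0.064), Dnajb4 (0.084), 1810026J23Rik (0.091) and Rps21 (0.10), against a median of 0.350. All 4 had HET below WT in every library, which follows from choosing them by likeness to Oaz2. None passed the adjusted threshold. Pld3, which encodes a phospholipase D family protein, had the smallest adjusted p of them (edgeR, 0.467) at 67.2% of the WT level.

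The other genes of polyamine metabolism formed a list of 34, of which 24 were in the table and tested. By edgeR 0 passed in either direction, and DESeq2 and limma-voom also called 0. An unadjusted p under 0.05 was reached by 2 of the 24, Slc3a2 and Got1, where 5.22% of all genes tested reached it. There were 16 negative and 8 positive log2 fold changes, with a median of -0.11 against 0.0040 over all genes. Over all genes tested 5356 were negative and 5513 positive, and this list was not tested as a set. The groups did not overlap for 3 of the 24 genes, Slc3a2, Oat and Ass1, all with HET below WT. Over all genes tested 10.3% had no overlap and 5.64% had none with HET below WT. The 3 of 24 is near the first share and above the second, and the excess over the second was not tested.

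Slc3a2, of the transport group, encodes the heavy chain shared by several amino acid transporters and has been linked to polyamine export. It measured 264.8, 226.1 and 245.4 CPM in the WT libraries against 215.7, 187.5 and 149.7 CPM in the HET libraries. All HET libraries were below all WT libraries, at 75.2% of the WT level (95% interval 62.0% to 91.2%; edgeR adjusted p = 0.495). Without HET 1 the log2 fold change was -0.54 with an adjusted p of 0.0515, and without HET 4 it was -0.28 with 0.998. Atp13a3, a polyamine-transporting ATPase and the next by p in this group, had a WT mean of 57.1 ± 17.9 and a HET mean of 68.5 ± 15.7 CPM (SD, n = 3 each). The 5 tested transport genes had 2 negative and 3 positive values.

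All 4 tested genes of ornithine and arginine supply had negative values, and none passed. Ass1, the argininosuccinate synthase, measured 24.4, 23.6 and 29.3 CPM in the WT libraries against 18.6, 16.1 and 18.7 CPM in the HET libraries (edgeR adjusted p = 0.950). Oat, the ornithine aminotransferase, measured 77.0, 80.3 and 73.7 CPM in the WT libraries against 66.8, 56.3 and 61.6 CPM in the HET libraries (0.952). Both were separated between the groups, at 69.5% and 80.0% of the WT level. The arginase genes Arg1 and Arg2 had no entry under these symbols among the genes with counts, so they were not analysed.

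In the methionine cycle and salvage group, which makes S-adenosylmethionine and recovers methionine from the by-product of the synthases, 5 of 8 tested genes had negative and 3 positive values. Got1, a cytosolic aspartate aminotransferase, measured 28.7, 44.1 and 24.1 CPM in the WT libraries against 27.1, 14.6 and 17.1 CPM in the HET libraries. The groups overlapped through HET 1, and the log2 fold change was -0.70 (edgeR adjusted p = 0.814). Apip, a methionine salvage enzyme, was next by p with a WT mean of 9.61 ± 1.30 and a HET mean of 12.5 ± 3.81 CPM (SD, n = 3 each).

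Spermidine is also the substrate for hypusine, a modified amino acid found in the translation factor eIF5A. Of the 4 tested genes of hypusine formation, 3 had negative and 1 a positive value, and none passed. Eif5a itself had a WT mean of 567 ± 36.3 and a HET mean of 541 ± 47.7 CPM (SD, n = 3 each), at 95.5% of the WT level with a 95% interval of 82.1% to 111%. Eif5a2, its paralog, had 7.38 ± 0.97 and 5.28 ± 2.07 CPM and the smallest p of the group, and Eif5a came second. The oxidases of breakdown overlapped between groups, with Smox, the spermine oxidase, at a WT mean of 27.5 ± 2.57 and a HET mean of 24.3 ± 8.89 CPM, and Paox at 8.17 ± 3.47 and 9.18 ± 1.98 CPM (SD, n = 3 each). Azin2, a second antizyme inhibitor, had a WT mean of 6.66 ± 2.14 and a HET mean of 5.50 ± 0.65 CPM.

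**Figure D4:**
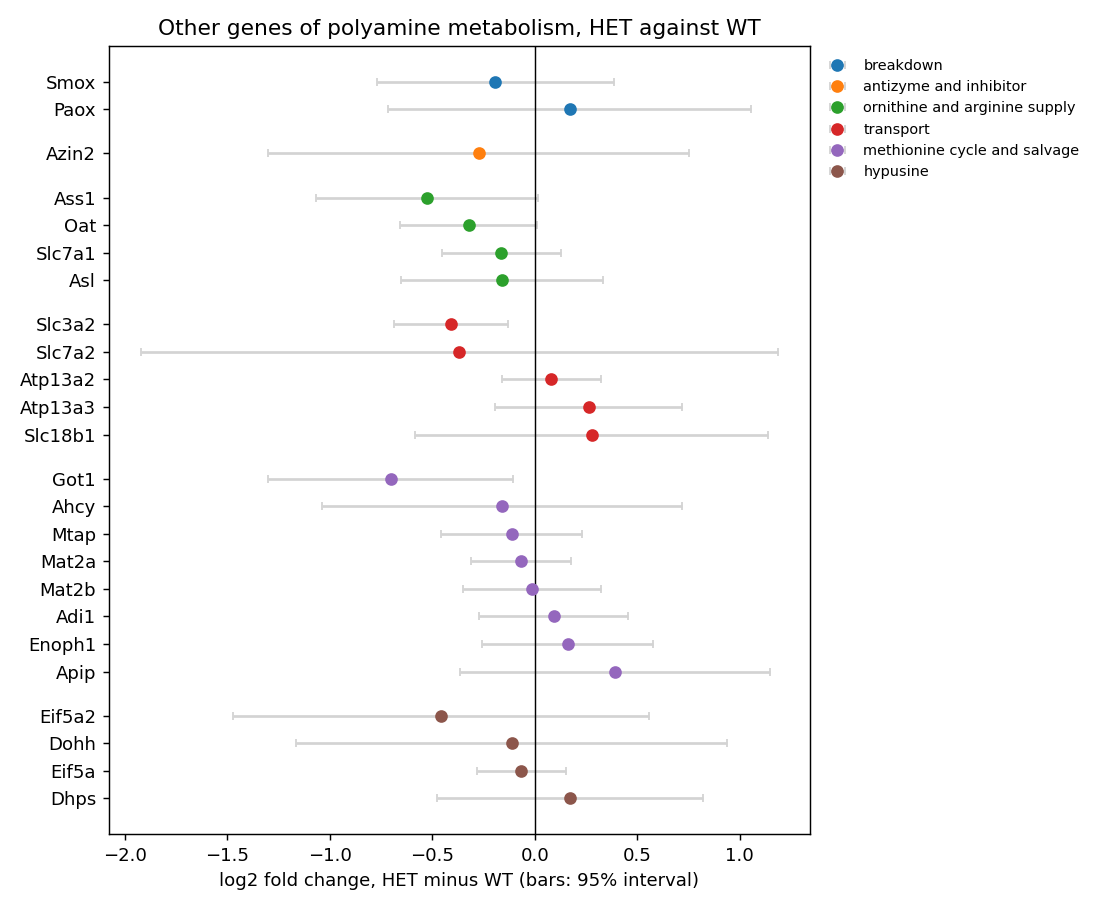
Log2 fold change (HET minus WT) with its 95% interval, not adjusted for the number of genes, for the 24 other tested genes of polyamine metabolism, coloured by role. All 4 supply genes lie below 0, and the intervals of Slc3a2 and Got1 alone exclude 0.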

How the data were processed

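RNA-seq of 3 WT and 3 HET libraries was analysed. The authors deposited raw counts, as whole numbers, for each gene. The submitters' processing notes name mm10, limma, edgeR, STAR 2.5.2b and FastQC without role or order. Not given in the sources used here are the read counter, annotation, strand setting and kit, and the protocol fields attached to the samples describe another study and were not used. Each of the 11779 genes exceeded 1.01 CPM in at least 2 libraries, so low genes had been removed before deposit. Groups follow the genotype label, and library numbers the titles, which call HET libraries knockouts.

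Counts were fitted with edgeR 4.0.16 (R 4.3.3; filterByExpr, which removed 910 genes, TMM, robust two-sided quasi-likelihood F test, Benjamini-Hochberg over 10869 genes, threshold 0.05), with the group as the only term. Standard errors come from the F statistic. Alternatives used DESeq2 1.42.0, limma 3.58.1 (voom), other scalings and filters, a replicate block, HET 1 thinned to 5008785 counts, and each library left out. Ratios used exact permutation tests. On simulated counts, with 200 genes changed in each of 3 simulations (10705 genes tested on average), 66.9% of 2-fold and 91.0% of 4-fold changes were called, and 37 of 502 calls (7.37%) were false. Gene models came from GENCODE M21 on GRCm38 (mm10), and all 8 member IDs matched. The members and lists were chosen with earlier results of these data known. Named were all members, Myc, the 2 pathway genes of smallest p per role and those past the threshold, and the 4 nearest profiles to Odc1 and to the member of smallest p. Cd48, Itga2b, Prtn3 and Hbb-bt were singled out among the markers after their values were seen. One marker of the sorted population is not reported here.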

Additional observations from a re-analysis of the deposited data

How the results depend on the processing

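In all 14 alternative fits 0 of the 8 members and 0 of the 24 other pathway genes passed the threshold. Of 112 member values under an alternative, 107 kept their direction and 5 reversed: Sms without WT 4 (0.16), HET 1 (0.025) or HET 3 (0.047), and Azin1 without WT 1 (0.038) or HET 3 (0.082), against -0.041 for both with all libraries. Their lowest values with 1 library left out were -0.24 for Sms (without WT 3) and -0.17 for Azin1 (without HET 1). The cause was not tested. Leaving out 1 library moved Amd1 between -1.13 and -0.30, Oaz1 between -0.52 and -0.18, Oaz2 between -0.65 and -0.56 Odc1 between -0.21 and -0.02, Srm between -0.15 and -0.015 and Sat1 between 0.040 and 0.26, while other scalings, filters and tools kept Oaz2 between -0.62 and -0.59. Over all genes 28 passed in the main fit of 10869 genes. DESeq2, given all 11779 genes without the count filter, called 57, and edgeR without that filter called 29. With 1 library left out between 10 (without HET 4) and 68 (without HET 1) passed, 11 without WT 1. With the library number as a block 49 genes passed. That block changed no member's call, and the Odc1, Oaz2 and Oaz1 values under it were -0.14, -0.60 and -0.38. Deviations of libraries of the same number correlated weakly, at 0.11, -0.04 and 0.07 for numbers 1, 3 and 4. WT 1 and HET 1 had the highest correlation of any WT and HET library (0.112, against 0.111 for WT 4 and HET 3). WT 3 and HET 3 did not correlate best with each other. So few weak correlations cannot settle whether libraries of the same number belong together. With 1 library of each group per number, the block cannot change a mean ratio difference. Leaving out 1 library moved the Odc1 to Oaz1 difference between 0.14 and 0.35, Azin1 to Oaz1 between 0.10 and 0.63, Odc1 to Sat1 between -0.45 and -0.14, Odc1 to Myc between 0.13 and 0.44 and Oaz2 to Oaz1 between -0.38 and -0.11. Among the 8 members depth limits Amd1 most, with 19 to 108 counts a library, and the pathway gene Slc7a2 had fewer, 8 to 24.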
